A study of Caenorhabditis elegans with 12 samples.

Results

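Acetylation of histone H4 at lysine 5 (H4K5ac) and at lysine 8 (H4K8ac) was examined on chromosome III of Caenorhabditis elegans. The regions described are all listed regions of each mark whose chromosome is the one that carries the gene R107.5, which the RefSeq annotation of assembly WBcel235 places on chromosome III. This gave 1151 of the 6432 listed H4K5ac regions, annotated to 974 of 5632 genes, and 1109 of the 6397 listed H4K8ac regions, annotated to 946 of 5671 genes. Of these genes, 967 and 939 matched the RefSeq table, and every matched region, 1141 and 1102, was annotated to a gene of chromosome III. The chromosome was divided into a left arm, a centre and a right arm of equal length, ending at bases 4594533, 9189066 and 13783599, the last being the end of the last listed region.

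The 12 samples formed 4 groups of 3 libraries: immunoprecipitated chromatin (IP) for H4K5ac, IP for H4K8ac, and an input set for each mark. All came from whole adult Bristol N2 worms, the standard wild-type strain, fed Escherichia coli OP50 at 20 °C, so every group shares 1 genotype and no group carries a mutation or treatment. The material was whole animals, so signal from germline, neurons, muscle and intestine was measured together. The labels do not say whether replicates came from separate cultures, so the p-values reflect the spread between these libraries alone, which may be technical.

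Acetyl groups on the H4 tail are written by histone acetyltransferases and removed by deacetylases, neutralise the positive charge of the lysines and are a common feature of active promoters and gene bodies. Worm chromosomes have no single centromere. Their autosomes have a gene-dense centre with little recombination, which holds many housekeeping genes, and arms with more recombination, more repeats and many rapidly duplicating families such as F-box proteins and chemoreceptors.

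Total estimated counts ranged from 5460401 to 9156386 per library. The authors' value is 1 estimated read count per gene, repeated on each region of that gene, and 842 of the 974 H4K5ac genes and 824 of the 946 H4K8ac genes had a single region. Within the IPs, libraries stood apart. For H4K5ac, IP replicate 1 had the highest IP level at 267 of the 372 genes called higher than input and the lowest at 145 of the 209 called lower. IP replicate 3 stood at the other side, lowest at 245 of the genes called higher and highest at 157 of those called lower. For H4K8ac, IP replicate 1 was highest at 305 of 379 genes called higher and IP replicate 2 was lowest at 294 of them. The main H4K5ac counts are therefore also given without IP replicate 1.

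Listed regions were fewer but broader in the centre of chromosome III than in its arms. For H4K5ac there were 71.6 regions per Mb in the centre (329 regions), against 87.7 in the left arm (403) and 91.2 in the right arm (419). For H4K8ac the densities were 62.5 per Mb in the centre (287 regions), against 90.1 in the left arm (414) and 88.8 in the right arm (408). The centre thus held 28.6% of the H4K5ac regions (95% Clopper-Pearson interval 26.0 to 31.3%) and 25.9% of the H4K8ac regions (23.3 to 28.6%), intervals that cover counting error only. Per Mb, the centre of chromosome III had 0.800 times the H4K5ac regions of its arms and 0.698 times the H4K8ac regions. On the other chromosomes this ratio ran from 0.796 on I to 1.20 on V for H4K5ac, and from 0.729 on I to 1.12 on V for H4K8ac. These densities count listed regions only, and the lists skip some region numbers. For H4K8ac 30.7% of the numbers were missing in the centre, against 18.2% in the left and 22.0% in the right arm. For H4K5ac 22.8% were missing in the centre, against 22.9% and 21.4%. The lower H4K8ac ratio may thus reflect unlisted regions, which was not tested.

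The share of bases under a region went the other way. Regions covered 59.95% of the centre for H4K5ac, against 49.8% of the left and 53.4% of the right arm, and 68.5% of the centre for H4K8ac, against 49.3% and 56.2%. The median region was 5799 bp wide in the centre and 3799 bp in both arms for H4K5ac. For H4K8ac it was 7199 bp in the centre, 3599 bp in the left arm and 4399 bp in the right arm. Regions of at least 15 kb numbered 45 in the centre, 24 in the left arm and 36 in the right arm for H4K5ac, and 57, 24 and 37 for H4K8ac. The centre also held more annotated protein-coding genes, 231 per Mb against 165 in the left and 178 in the right arm. A larger share of them met a region: 81.9% in the centre against 71.7% and 79.9% in the left and right arms for H4K5ac, and 86.9% against 74.5% and 81.1% for H4K8ac.

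**Figure D1:**
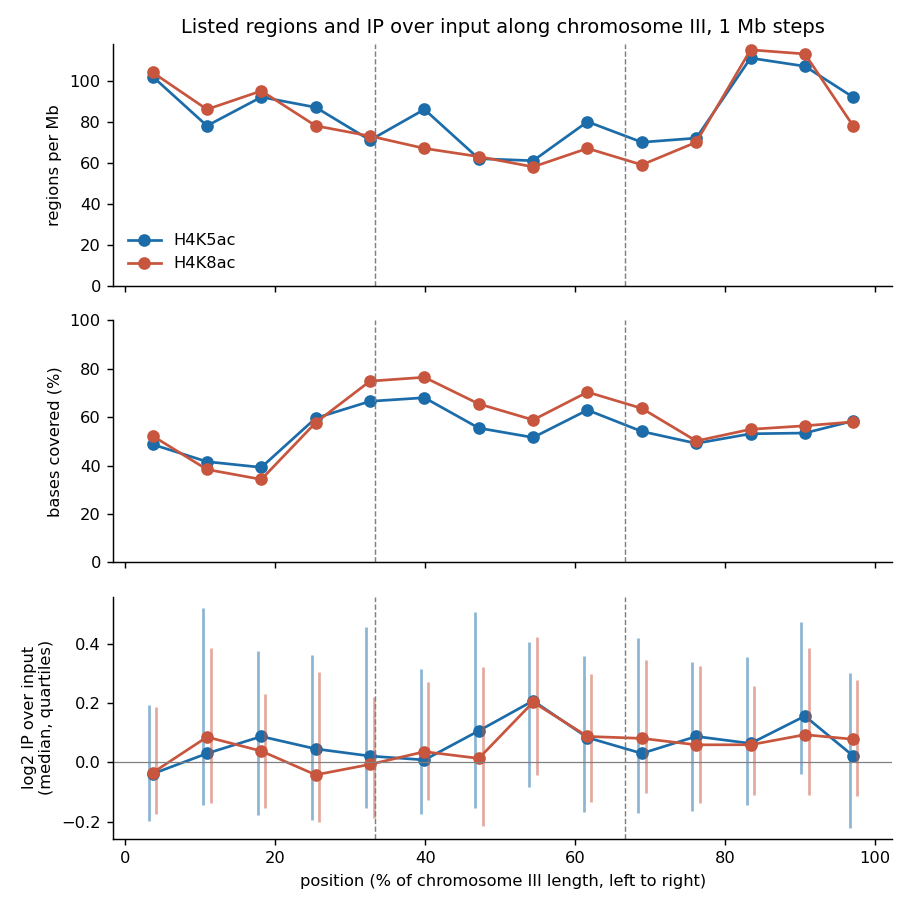
Regions per Mb, percent of bases covered, and the median log2 IP over input of the genes (thin bars: quartiles over genes) in 1 Mb steps along chromosome III, for H4K5ac and H4K8ac, with position as percent of chromosome length and dashed lines between arms and centre. Region number is lowest, and coverage highest, within the centre; at 11 to 12 Mb the right arm reaches 111 regions per Mb for H4K5ac and 115 for H4K8ac.

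Along the chromosome, coverage was highest at 5 to 6 Mb, with 68.1% of bases for H4K5ac and 76.5% for H4K8ac, and lowest at 2 to 3 Mb in the left arm, with 39.3% and 34.3%. The broadest H4K5ac region, annotated to mmab-1, ran from 4889401 to 4954999 (65599 bp) and met 23 protein-coding genes, among them rpb-2 and rpb-8, which encode RNA polymerase II subunits, and set-2, which encodes a histone H3 lysine 4 methyltransferase. The broadest H4K8ac region covered the same place, from 4885201 to 4963999 (78799 bp, 28 protein-coding genes), and was annotated to set-2. The next H4K8ac region by width, annotated to mel-32, which encodes serine hydroxymethyltransferase, ran from 6407001 to 6476799 (69799 bp). A region of 59799 bp from 6338601 to 6398399, annotated to thoc-2, a gene of the THO messenger RNA export complex, had the same borders in both lists.

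Width did not fix the ratio to input. The mmab-1 levels were 139, 159 and 144 CPM (read counts put on a common library size) in the H4K5ac IPs, against 132, 151 and 141 in the inputs, a log2 fold of 0.06 ± 0.08 (SE; adjusted p = 0.52 by edgeR's quasi-likelihood test with Benjamini-Hochberg adjustment). The IP and input ranges overlapped at this gene. The mel-32 levels were 288, 254 and 268 CPM in the H4K8ac IPs, against 140.3, 135 and 148 in the inputs, a log2 fold of 0.94 ± 0.06 (edgeR adjusted p = 7.8e-07). Each mel-32 IP lay above all 3 inputs.

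The longest stretch of chromosome III without a listed region lay in the left arm, from 1238400 to 1404000 for H4K5ac (165.6 kb) and from 1240200 to 1404000 for H4K8ac (163.8 kb). It held 47 protein-coding genes between the H4K5ac regions, 27 of them fbxa genes, which encode F-box proteins, the substrate adaptors of ubiquitin ligases, and 6 of them pals genes. The second stretch, from 2207800 to 2301400 for H4K5ac (93.6 kb, 25 protein-coding genes, 13 of them fbxa) and from 2216600 to 2289400 for H4K8ac (72.8 kb, 21 genes, 12 of them fbxa), was also in the left arm. The parts of these stretches free of both marks held 38 of the 71 F-box, MATH and BATH genes of the chromosome. Of the 33 outside them, 18 met an H4K5ac region and 21 an H4K8ac region. Region numbers in the lists run along the chromosome, and 5 H4K5ac and 1 H4K8ac numbers were missing across the first stretch and 4 and 2 across the second, so both may hold regions not analysed here. The sources used here do not say how reads from near-identical gene copies were placed, and its part in these gaps was not tested. In the centre, the longest H4K5ac gap, from 7392400 to 7444400, lay inside lgc-50, a ligand-gated ion channel gene, with 0 numbers missing.

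Regions assigned by the authors to introns made up 27.5% of the H4K5ac and 27.1% of the H4K8ac regions on chromosome III, against 20.7% and 21.2% over all chromosomes. Within the chromosome, intronic regions were 14.9% of H4K5ac regions in the centre, against 34.0% in the left and 31.3% in the right arm, and 16.7% of H4K8ac regions in the centre, against 30.7% and 30.6%. Promoter regions made up 30.9% and 30.7% on chromosome III, against 36.6% and 35.97% over all chromosomes.

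Genes of chromosome III were called higher in IP than in input more often, and lower less often, than all listed genes, for both marks. For H4K5ac, 372 of the 974 genes (38.2%) were called higher and 209 (21.5%) lower, beside 32.2% higher and 29.5% lower over all listed genes, 61.6% of which were called in either direction. For H4K8ac, 379 of 946 (40.1%) were higher and 247 (26.1%) lower, beside 31.2% and 33.6% of all listed genes, of which 64.8% were called in either direction. Calls used edgeR's quasi-likelihood test within each mark's table at an adjusted p under 0.05. The median log2 fold on chromosome III was 0.06 for H4K5ac and 0.05 for H4K8ac, against -0.04 and -0.05 on the other chromosomes, differences of 0.09 and 0.10. Chromosome I had medians of 0.07 and 0.02, with 38.8% higher and 20.6% lower for H4K5ac and 36.1% and 27.1% for H4K8ac. The other chromosomes include X, with 17.6% higher and 41.1% lower for H4K5ac and 12.4% and 52.1% for H4K8ac. On the other autosomes alone the medians were -0.01 in the arms and 0.04 in the centre for H4K5ac. For H4K8ac they were -0.02 and -0.04. Without H4K5ac IP replicate 1, 387 genes were higher (39.7%) and 210 lower (21.6%), beside 32.8% and 31% of all listed genes in that fit, and the difference of medians was 0.10. All 3 IPs lay above all 3 inputs at 398 chromosome III genes for H4K5ac (40.9%, beside 35.2% of all listed genes) and below them at 236 (24.2%, beside 33.1%). For H4K8ac they lay above at 401 genes (42.4%, beside 32.7%) and below at 263 (27.8%, beside 36.5%). Without 1 library the number of lower genes moved most, to 113 to 237 for H4K5ac. It was 137 without IP replicate 2, 115 without input replicate 2 and 113 without input replicate 3. That range was 11.6 to 24.3% of chromosome III genes, beside 19.2 to 31.02% of all listed genes. For H4K8ac the number of lower genes was 151 without IP replicate 3 (15.96%, beside 22.9% of all listed genes).

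The sign of a fold depends on scaling, because a fold of 0 marks the typical listed gene. With scaling by total count, the split on chromosome III became 279 higher and 374 lower for H4K5ac, 42.7% of calls higher in place of 64.03%, and 316 higher and 330 lower for H4K8ac, 48.9% in place of 60.5%. Under that scaling 24% of all listed H4K5ac genes were higher and 46.6% lower (33.9% of calls higher), and 25.6% of all listed H4K8ac genes were higher and 44% lower (36.8% of calls higher), so the share of higher calls was larger on chromosome III than over all genes there too. The median of all H4K5ac genes was then -0.15, against -0.02 with the main scaling. The difference between chromosome III and the others was 0.09 for H4K5ac and 0.10 for H4K8ac under that scaling too. The folds reported below are relative to the typical listed gene.

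Within chromosome III the left arm had the lowest median for both marks. For H4K5ac the median log2 fold was 0.08 in the centre (125 of 308 genes higher, 58 lower), 0.03 in the left arm (117 of 332 higher, 83 lower) and 0.07 in the right arm (130 of 334 higher, 68 lower). For H4K8ac the median was 0.06 in the centre (115 of 268 higher, 42.9%, and 69 lower, 25.7%). It was 0.0001 in the left arm (122 of 353 higher, 34.6%, and 109 lower, 30.9%). In the right arm it was 0.08 (142 of 325 higher, 43.7%, and 69 lower, 21.2%). Of all listed H4K8ac genes 31.2% were higher and 33.6% lower, near the left arm's shares. On II the left arm was also lowest, at -0.13 for H4K5ac and -0.07 for H4K8ac, while on I the right arm was, at 0.01 and -0.01. The quartiles of the stretches overlapped widely, and these differences between stretches were compared over libraries only as shares of counts.

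**Figure D2:**
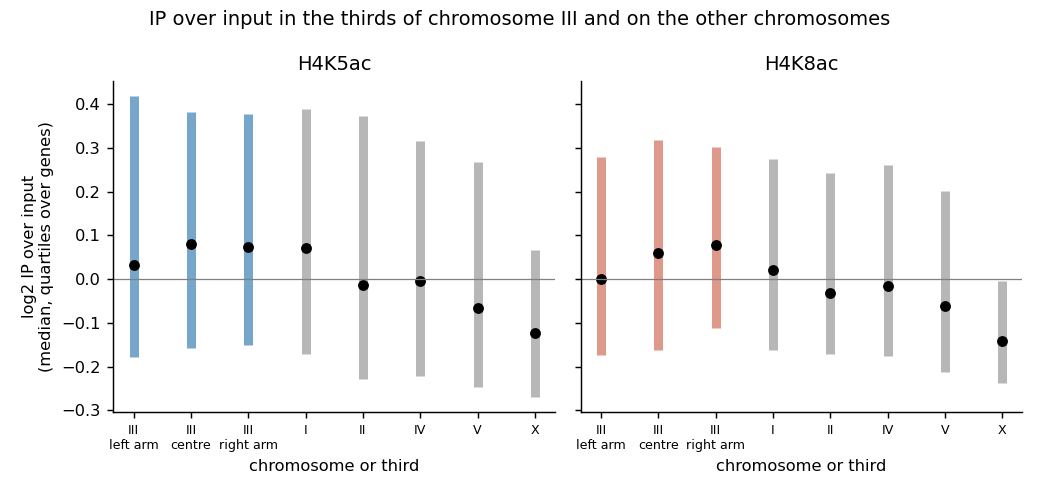
Median (points) and quartiles over genes (bars) of log2 IP over input in the left arm, centre and right arm of chromosome III and on each other chromosome, for H4K5ac (left) and H4K8ac (right). The chromosome III medians lie between 0.03 and 0.08 for H4K5ac and between 0.0001 and 0.08 for H4K8ac, beside the lowest chromosome medians of -0.12 and -0.14 on X.

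As a share of all listed counts, chromosome III took 19.06, 19.05 and 19.20% in the H4K5ac IPs, against 18.3, 18.3 and 18.3% in their inputs (19.1 ± 0.0861 against 18.3 ± 0.0375, SD, n = 3 each). In the H4K8ac IPs it took 18.3, 18.1 and 18.1%, against 17.3, 17.4 and 17.4% in the inputs (18.1 ± 0.0922 against 17.4 ± 0.0798). Every IP lay above every input for both marks, by 0.820 and 0.795 percentage points on average. The two-sided exact permutation test gave p = 0.1 for each, the smallest that 3 against 3 libraries allow, and 0.16 after Benjamini-Hochberg adjustment over 8 share tests, so neither passed the threshold. Relative to input, the share of chromosome III was 4.48% larger for H4K5ac and 4.58% larger for H4K8ac. Chromosome I followed with 4.16% and 2.32%, while the share of X was smaller by 10.3% and 10.2% (changes of -10.3 and -10.2%), and since shares sum to a fixed total these are not independent.

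The centre held 30.2, 32.5 and 32.8% of chromosome III counts in the H4K5ac IPs, against 30.9, 31.9 and 32.1% in the inputs. Replicate 1 was low in both groups, and the ranges overlapped (mean difference 0.191 percentage points, two-sided exact permutation p = 0.9). Within replicate numbers the differences were -0.737, 0.593 and 0.717, so the direction was not shared. Leaving out a library turned it in 3 cases, to -0.150 without IP replicate 2, -0.308 without IP replicate 3 and -0.185 without input replicate 1. For H4K8ac the centre held 29.5, 29.7 and 29.5% of the IP counts, against 29.3, 29.4 and 29.3% of the input counts. The H4K8ac left arm held 35.5% in the IPs and 36.3% in the inputs, a difference of -0.809 points, and the right arm 34.9% in the IPs and 34.3% in the inputs, a difference of 0.577 points. The H4K8ac groups did not overlap in any of the stretches (exact permutation p = 0.1 each, adjusted 0.16). With shorter arms, each 25% of the length, the H4K8ac centre difference was 0.140 points (exact permutation p = 0.4).

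Genes annotated to broad regions were called higher more often than genes annotated to narrow ones, with width and fold taken from the same libraries. Other genes that such a region meets are not counted with it here. Of the chromosome III genes annotated to regions of 15 kb or more, 78.0% were higher and 3.00% lower for H4K5ac (100 genes). For H4K8ac 73.9% were higher and 6.09% lower (115 genes). Of those annotated to regions narrower than 2 kb, 18.6% were higher and 45.3% lower for H4K5ac (172 genes). For H4K8ac 17.3% were higher and 48.7% lower (150 genes). On the other chromosomes those narrow regions gave 8.98% higher and 60.8% lower for H4K5ac, and 8.85% higher and 60.4% lower for H4K8ac. The Spearman correlation of width with fold across chromosome III regions was 0.445 for H4K5ac (n = 1151) and 0.431 for H4K8ac (n = 1109). It describes regions that share libraries and, in part, genes. Width did not follow the input level, with correlations of 0.00825 and -0.0138.

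**Figure D3:**
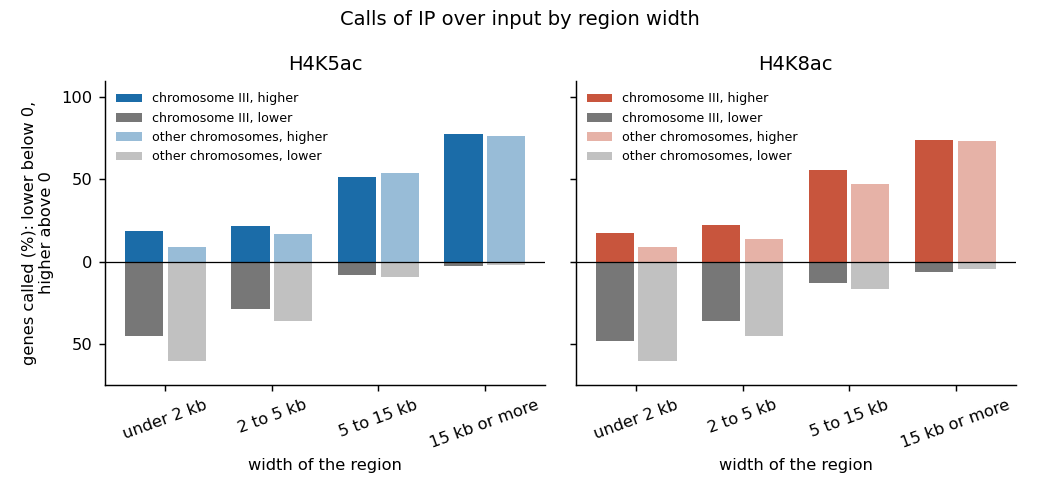
Percent of genes called higher (above 0) and lower (below 0) in IP than in input, by width of the gene's region, for chromosome III (dark) and the other chromosomes (light), H4K5ac on the left and H4K8ac on the right. The share called higher grows with width, from 18.6 to 78.0% of chromosome III genes for H4K5ac and from 17.3 to 73.9% for H4K8ac.

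The highest H4K5ac gene on chromosome III was hsp-60, the mitochondrial chaperonin, whose gene lies from 1619742 to 1625803 in the left arm under a promoter region from 1612801 to 1625999. Its levels were 1035, 694 and 563 CPM in the IPs, against 209, 186 and 205 CPM in the inputs. Its log2 fold was 1.94 ± 0.20 (SE, edgeR adjusted p = 2.07e-05), and 1.65 without IP replicate 1, the highest of the IPs. In that fit hsp-60 was not the highest, with R107.5 at 1.73 and rpn-3 also at 1.65. R107.5, which the files name only by its sequence name, followed with 910.0, 683 and 595 CPM in the IPs, against 204, 182 and 193 in the inputs. Its log2 fold was 1.92 ± 0.17 (edgeR adjusted p = 8.28e-06), and its promoter region, from 9043401 to 9065199 at the right edge of the centre, also meets the window of cls-2, a microtubule regulator of the CLASP family.

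rpn-3, a non-ATPase subunit of the proteasome's regulatory particle, had 708, 587 and 512 CPM in the H4K5ac IPs, against 186, 172 and 165 in the inputs (log2 fold 1.79 ± 0.14, edgeR adjusted p = 7.85e-06). Its start lies beside that of hsp-110, a cytosolic chaperone gene. abcf-2, which encodes an ATP-binding cassette protein of the F family, had 465, 352 and 305 CPM in the IPs, against 137, 114 and 111 in the inputs (1.63 ± 0.14). At all of these genes every IP lay above every input, and IP replicate 1 was the highest IP. The rest of the highest 10 were Y82E9BR.27 (1.46) and C36E8.10 (1.42), both annotated as non-coding RNA, ubc-20, a ubiquitin-conjugating enzyme gene (1.35), atp-2, the beta subunit of mitochondrial ATP synthase (1.33), set-16, a histone H3 lysine 4 methyltransferase of the MLL family (1.32), and the long non-coding RNA linc-90 (1.32). Without IP replicate 1 the folds of these ran from 1.11 for ubc-20 to 1.29 for C36E8.10, and abcf-2 was at 1.44.

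The upper end of the H4K8ac ranking began with R107.5, with 633, 487 and 617 CPM in the IPs, against 204, 203 and 208 in the inputs (log2 fold 1.498 ± 0.12, edgeR adjusted p = 1.52e-06). Next was Y22D7AL.10, at 576, 440.0 and 545 CPM in the IPs, against 203, 200 and 209 in the inputs (1.35 ± 0.11). Its region, from 1608001 to 1625999, contains the hsp-60 region of the H4K5ac list, and each gene lies in the other's start window. A change of name between lists therefore need not be a change of place. abcf-2 followed at 285, 232 and 276 CPM in the IPs, against 115.5, 115.8 and 124 in the inputs (1.16 ± 0.07). The others were K08E3.5 (1.02), set-16 (1.02), gei-4 (1.01), snpc-3.4, a gene of the small nuclear RNA activating complex family (0.99), the ataxin-2 gene atx-2 (0.98), ccf-1, a CCR4-NOT deadenylase gene (0.97), and abcf-3 (0.95). The gei-4 region begins at base 343001, as does the H4K5ac region named linc-90, and the snpc-3.4 region begins at 4014601, as does the one named C36E8.10.

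**Figure D4:**
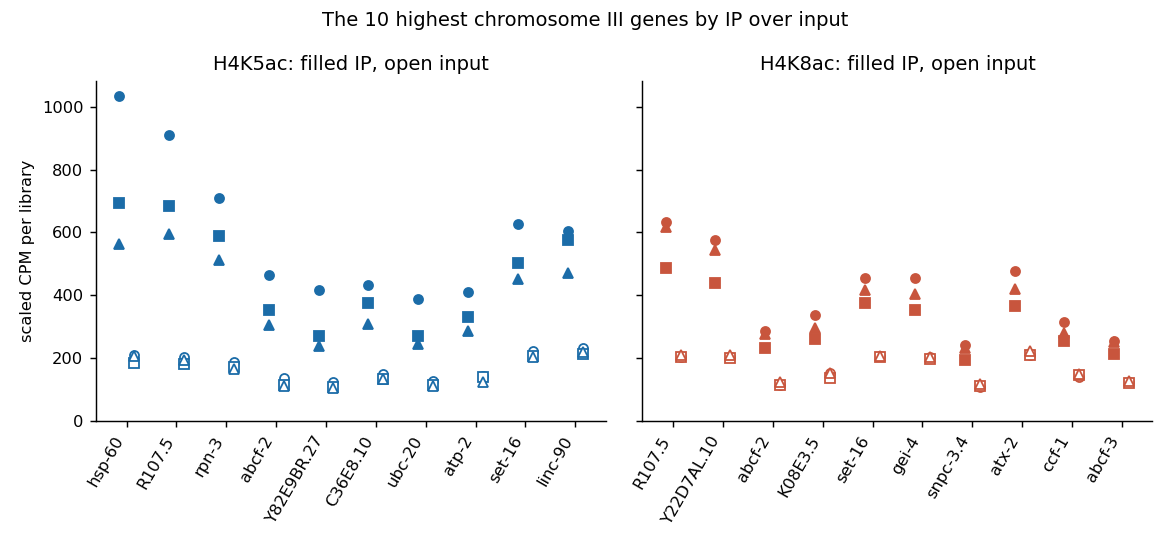
Scaled CPM in every library for the 10 chromosome III genes with the highest IP over input of each mark, filled for IP and open for input, with circles, squares and triangles for replicates 1, 2 and 3. All IPs exceed all inputs at each gene; among the H4K5ac IPs replicate 1 is the highest at all 10 genes, and among the H4K8ac IPs replicate 2 is the lowest at all 10.

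The 50 highest genes of each mark came from all stretches of the chromosome, 17 from the centre, 17 from the left and 16 from the right arm for H4K5ac, and 12, 20 and 18 for H4K8ac. Of these, 45 were protein-coding for each mark. Their median region width was 12199 and 12499 bp, against 2499 and 2399 bp for the 50 lowest genes. A gene's input level was lower, and its fold slightly higher, where more other protein-coding genes met the 2 kb to either side of its start. Such a gene was counted wherever its own start lay, and whether counts are shared between neighbouring genes was not tested. Across chromosome III genes, which share libraries, the Spearman correlation of fold with that number of neighbouring genes was 0.158 for H4K5ac and 0.140 for H4K8ac. That of input level was -0.258 for H4K5ac (n = 967) and -0.273 for H4K8ac (n = 939).

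Folds at the lower end of the ranking were nearer 0 than at the upper end. Of the 50 lowest genes 41 were protein-coding and 7 non-coding RNA for H4K5ac, beside 764 and 135 of all 974, and 36 and 12 for H4K8ac, beside 736 and 139 of all 946. The lowest H4K5ac gene was R10E12.3, a non-coding RNA, with 71.1, 82.8 and 90.8 CPM in the IPs, against 103.9, 109.6 and 102.9 in the inputs. Its log2 fold was -0.37 ± 0.09 (edgeR adjusted p = 0.00336), and no IP reached an input. Next were F22B7.14 (-0.37) and the transfer RNA gene F22B7.t1 (-0.37). The F22B7.14 call was lost without input replicate 3 (edgeR adjusted p = 0.0519). T20B6.3 and H14E04.6 (-0.37 each) and BE10.5 (-0.36) followed. unc-64, the syntaxin gene needed for synaptic vesicle release, had 86.1, 85.7 and 99.8 CPM in the IPs, against 102.7, 122.3 and 124.1 in the inputs (-0.36 ± 0.09, edgeR adjusted p = 0.00471). C29F9.12, K02D10.8 and F28F5.4 completed the lowest 10 at -0.36 each.

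The lowest H4K8ac gene was R06B10.8, a non-coding RNA in the left arm, with 124, 127 and 122 CPM in the IPs, against 145, 167 and 158 in the inputs (log2 fold -0.33 ± 0.06, edgeR adjusted p = 0.000404). B0353.2, T22F7.1, nas-28, an astacin-type metalloprotease gene, and F28F5.4 were at -0.33 each, as were F26A1.4, M88.11, sax-2, a gene of the Furry family, and R151.14. Y39A1A.2 was at -0.32. F28F5.4 is in the lowest 10 of both marks. sax-2, whose region spans 5111201 to 5124599 in both lists, was at -0.34 for H4K5ac too, with 123, 139 and 144 CPM in the IPs, against 162, 178 and 173 in the inputs.

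The ends of the chromosome differed. The first region at the left end, from 11601 to 16399, belonged to nhr-80, a nuclear hormone receptor gene known for its role in fatty acid desaturation. It had 264, 239 and 229 CPM in the H4K5ac IPs, against 214, 211 and 208 in the inputs (log2 fold 0.21 ± 0.07, edgeR adjusted p = 0.0284). That call was lost in 6 of 12 alternatives, among them each fit without 1 of the IP replicates 1 and 2 or the input replicates 1, 2 and 3, with adjusted p from 0.051 to 0.0933, and total-count scaling, with a fold of 0.07. In the H4K8ac table nhr-80 was at -0.0007 ± 0.06, with overlapping groups. The next gene, H10E21.4, was at -0.11 for H4K5ac (edgeR adjusted p = 0.168, but called with total-count scaling at 0.00685 and in the fit of shared genes at 0.0475) and at -0.20 for H4K8ac (edgeR adjusted p = 0.00943, and 0.0704 without IP replicate 3).

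At the right end, a region of 33399 bp from 13750201 to 13783599 had identical borders for both marks and met 8 protein-coding genes. They include pdr-1, the parkin orthologue, mdt-29, a Mediator subunit, and pot-3, a telomere-binding protein gene. It is annotated to K08E3.5 (rml-1), which had 381, 302 and 296 CPM in the H4K5ac IPs, against 173, 156 and 152 in the inputs (log2 fold 1.03 ± 0.11, edgeR adjusted p = 1.77e-05). In the H4K8ac libraries it had 337, 262 and 294 CPM in the IPs, against 154, 137 and 152 in the inputs (1.02 ± 0.08). Every IP exceeded every input for both marks. The neighbours inward went the other way. K08E3.2 was at -0.23 for H4K5ac, where the call was lost without input replicate 1 (edgeR adjusted p = 0.061) or 2 (0.0536), and at -0.20 for H4K8ac, where it was lost without IP replicate 3 (0.0698). The long non-coding RNA linc-99 was at -0.23 for H4K5ac, where the call was lost without IP replicate 2 (edgeR adjusted p = 0.158), input replicate 2 (0.0676) or input replicate 3 (0.128), and at -0.31 ± 0.06 for H4K8ac (edgeR adjusted p = 0.00113).

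Gene groups on chromosome III are given by the members that had a count, beside 32.2% higher and 29.5% lower among all listed H4K5ac genes and 31.2% and 33.6% among all listed H4K8ac genes. Many members of the broadly used groups met a region without being the gene it was annotated to. Over all protein-coding genes of chromosome III, 78.3% met an H4K5ac region and 81.5% an H4K8ac region. Group counts of genes that met a region are to be read beside those shares. For polarity, spindle and cell cycle genes, 13 of 13 met a region of each mark, and the 5 with a count were all higher for both marks, with medians of 0.41 and 0.42 beside -0.02 and -0.04 for all genes. par-2, a RING-finger protein of the posterior cortex, had 269, 190.3 and 172 CPM in the H4K5ac IPs, against 114, 105 and 109 in the inputs (log2 fold 0.95 ± 0.14, edgeR adjusted p = 0.000145). Its H4K5ac fold was 0.72 without IP replicate 1, and it was at 0.68 for H4K8ac. The anaphase-promoting complex genes emb-30 (0.76 and 0.59) and mat-3 (0.30 and 0.42) and the Polo kinase gene plk-1 (0.41 and 0.40) followed. The doublecortin-domain gene zyg-8 (0.31 and 0.24) lost its H4K5ac call without input replicate 3 (edgeR adjusted p = 0.0814), and zyg-8 and mat-3 lost theirs with total-count scaling (0.0989 and 0.0776).

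All 7 cell death and sex determination genes met a region of each mark, and 4 of the 5 with an H4K5ac count and 4 of 4 with an H4K8ac count were higher. fem-2, a phosphatase gene of the sex determination pathway, was at 0.81 and 0.72, and tra-1, the GLI-type factor at its end, at 0.35 and 0.36. mog-1, an RNA helicase gene of the switch between sperm and oocytes, was listed for H4K5ac at 0.71. ced-4, the Apaf-1-like cell death gene, was at 0.12 for H4K5ac (adjusted p = 0.177, and 0.0382 without IP replicate 1) and higher at 0.23 for H4K8ac. ced-7, an engulfment transporter gene, was at 0.24 and 0.19. Its H4K5ac call was lost with total-count scaling and its H4K8ac call in 7 of 12 alternatives, every fit without 1 library other than IP replicate 2 included (edgeR adjusted p from 0.0833 to 0.115).

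All 8 proteasome genes met a region of each mark, and 4 of 4 with an H4K5ac count and 2 of 2 with an H4K8ac count were higher: rpn-3 (above), rpt-6, an ATPase subunit, at 1.31 and 0.77, rpn-6.1 at 0.69 and rpt-3 at 0.50 for H4K5ac, and rpn-2 at 0.80 for H4K8ac. The H4K5ac fold of rpt-6 was 1.07 without IP replicate 1. Of 18 ribosomal protein genes, 17 met a region of each mark, yet only rpl-21 had a count, at 0.73 and 0.41. Of 9 chromatin genes all met a region of each mark. lin-36, a gene of the synthetic multivulva B group, was the one with an H4K5ac count, at 0.62, and set-2 the one with an H4K8ac count, at 0.35.

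All 4 Notch pathway genes met a region of each mark, and the receptors lin-12 (-0.17 and -0.11) and glp-1 (-0.09 and -0.03) were not called (edgeR adjusted p = 0.116 and 0.122 for lin-12, 0.369 and 0.666 for glp-1). lin-12 was called lower for H4K5ac with the replicate number as a block (adjusted p = 0.0458) or without IP replicate 3 (0.0187), and for H4K8ac without IP replicate 2 (0.0142). With total-count scaling lin-12 was called lower for both marks and glp-1 for H4K5ac. Of 7 TGF-beta and insulin pathway genes, 7 met an H4K5ac and 6 an H4K8ac region, and 2 of the 3 with a count were lower for each mark. lon-1 was at -0.16 (edgeR adjusted p = 0.104) and -0.08 (0.257) and not called, though without H4K5ac IP replicate 3 it was called lower (0.00958). The insulin receptor gene daf-2 was at -0.20 for H4K5ac, lost without IP replicate 3, input replicate 2 or input replicate 3 (edgeR adjusted p from 0.078 to 0.103), and lower at -0.23 for H4K8ac. The TGF-beta ligand gene daf-7 was lower at -0.22 for H4K5ac, and at -0.17 for H4K8ac, lost without IP replicate 1, IP replicate 3 or input replicate 1 (0.0664 to 0.102). Of 8 Hox and homeobox genes, 3 met an H4K5ac and 4 an H4K8ac region. mab-5, egl-5 and unc-86 met no listed region of either mark, which does not show that they lack the marks. ceh-13, the labial-type Hox gene, was lower for H4K5ac at -0.36 ± 0.09 (edgeR adjusted p = 0.00453), and pal-1, the caudal-type gene, was higher for H4K8ac at 0.20 ± 0.05 (edgeR adjusted p = 0.00443).

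Of 29 chemoreceptor genes, 6 met an H4K5ac and 7 an H4K8ac region. All that had a count, 2 and 3, were lower, srv-1 in both tables at -0.34 and -0.30. Its H4K5ac call was lost without IP replicate 2, input replicate 2 or input replicate 3 (edgeR adjusted p from 0.0571 to 0.0654), as was that of srw-10, at -0.31 (0.0591 to 0.0793). Without H4K8ac IP replicate 3, 1 of the 3 H4K8ac calls remained. Of the 71 F-box, MATH and BATH genes, 11 had an H4K5ac count, with 2 higher and 6 lower (7 lower with the replicate block), and 9 an H4K8ac count, with 0 higher and 7 lower, or 4 lower without IP replicate 3. bath-42, a MATH and BTB domain gene in the centre beside the splicing factor gene prp-8, was the highest of them at 0.98 ± 0.09 for H4K5ac (edgeR adjusted p = 1.18e-05). How reads were divided between similar family members was not tested, so these counts are uncertain. Of 14 C-type lectin genes, 6 and 10 met a region, with 2 of 2 and 2 of 4 lower. One H4K5ac call of these was lost without any single input, and the H4K8ac count was 4 without IP replicate 2 and 1 without any other library.

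Of 64 transfer RNA genes, 57 met a region of each mark. Among 18 with an H4K5ac count 3 were higher and 4 lower, and among 13 with an H4K8ac count 3 were higher and 3 lower, no more often than all listed genes. With the replicate block 5 were lower for H4K5ac. Without 1 library the lower count was 1 to 5 for H4K5ac, with 5 without IP replicate 3, 2 without IP replicate 1, IP replicate 2 or input replicate 3 and 1 without input replicate 1 or 2, and 1 to 5 for H4K8ac, with 5 without IP replicate 2 and 1 without IP replicate 3 or input replicate 2. Y49E10.t1 was higher for both marks, at 0.40 and 0.51. Of 20 genes named for collagens or for body shape, 19 and 18 met a region, with 2 higher and 2 lower of 9, and 3 higher and 2 lower of 7. The H4K5ac count of higher genes was 1 without IP replicate 2, input replicate 2 or input replicate 3, and the H4K8ac count of lower genes was 1 without IP replicate 3 or input replicate 1. Of 8 nuclear hormone receptor genes, 5 and 5 met a region, with 1 higher and 1 lower of 3, and 0 higher and 1 lower of 4, the higher one being nhr-80, described above. Of 11 neuronal genes 9 met a region of each mark, with 1 higher and 2 lower of 4 for H4K5ac and 0 higher and 1 lower of 2 for H4K8ac. The higher one was unc-32, a vacuolar ATPase subunit gene, at 1.03. unc-64 was lower at -0.36, as given above, and unc-119 was at -0.06 and -0.02 and not called. unc-47, the vesicular GABA transporter gene, was at -0.27 and -0.22, lost without input replicate 3 for H4K5ac (edgeR adjusted p = 0.0712) and without input replicate 1 for H4K8ac (0.0527). Of 5 muscle genes all met a region, with 2 higher and 0 lower of 4 for H4K5ac and 2 higher and 1 lower of 4 for H4K8ac. The myosin light chain gene mlc-3 was higher at 0.43 and 0.36 and the beta-integrin gene pat-3 at 0.37 and 0.22, while the integrin-linked kinase gene pat-4 was at -0.13 for H4K8ac. The H4K8ac call of pat-3 was lost without IP replicate 3 or any single input (edgeR adjusted p from 0.0522 to 0.107), and that of pat-4 without any single library other than IP replicate 2 (0.0619 to 0.209) and with the replicate block (0.084). The intestinal list had 1 gene and the sperm and germ granule lists 3 each, all of them under a region of each mark, and of the members with a count only spe-41 was called, for H4K5ac at 0.18, a call lost in 8 of 12 alternatives, each fit without 1 library other than IP replicate 1 included.

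The 2 marks lay largely in the same places on chromosome III. With an overlap of 1 bp, 1051 of 1151 H4K5ac regions (91.3%) met an H4K8ac region and 992 of 1109 H4K8ac regions (89.5%) met an H4K5ac region. On the other chromosomes these shares ran from 74.4% on X to 90.9% on IV for H4K5ac, and from 75.4% on V to 86.7% on I for H4K8ac. The regions covered 54.4% of chromosome III for H4K5ac and 58.0% for H4K8ac. How often regions would meet at that coverage without any relation was not tested. H4K5ac regions were met most often in the centre, 95.4%, against 88.1% in the left and 91.2% in the right arm. H4K8ac regions were met most often in the right arm, 92.2%, against 87.1% in the centre and 88.4% in the left arm. Regions that met none were narrow, with medians of 1899 bp for H4K5ac and 2399 bp for H4K8ac, against 4599 and 4999 bp for those that did. Of the genes listed for 1 mark only, 285 for H4K5ac and 257 for H4K8ac, 79.6% and 67.7% still had a region that met the other mark.

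For the 689 chromosome III genes in both tables, the H4K5ac fold minus the H4K8ac fold was tested in a fit of all 12 libraries. No gene passed at an adjusted p under 0.05 with edgeR, 0 of 689 beside 0% of all 3750 genes, with a smallest adjusted p of 0.144. At an unadjusted p under 0.05 there were 78 (11.3%, 49 of them higher for H4K5ac and 29 lower), beside 14.6% of all genes. The median difference was 0.0027, with a range from -0.32 to 0.58 and a median SE of 0.10. By their own tables, 236 genes were higher for both marks (34.3%, beside 29.5% of all 3750), 94 lower for both (13.6%, beside 16.2%) and 194 called for neither (28.2%, beside 26.5%), and 1 was higher for H4K5ac and lower for H4K8ac.

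DESeq2 called 6 of the 689 genes, 5 of them higher for H4K5ac, which is 0.871% beside 1.09% of all 3750 genes. unc-16, a JIP3-type adaptor gene of axonal transport, had a log2 difference of 0.43 with a 2-SE interval from 0.26 to 0.60 (edgeR adjusted p = 0.144, DESeq2 adjusted p = 0.00043). Its levels were 184, 186 and 179 CPM in the H4K5ac IPs, against 108.6, 119.1 and 123.3 in the inputs, and 154, 152 and 149 CPM in the H4K8ac IPs, against 132, 135 and 132 in the inputs. Both marks were above input there in every library. The other four were swsn-3, a SWI/SNF complex gene (0.41), paqr-2, an adiponectin receptor-like gene of membrane homeostasis (0.39), Y71H2AM.3 (0.37) and linc-82 (0.32), and W09D6.9 was lower for H4K5ac (-0.31). The edgeR count was 21 higher and 4 lower without H4K5ac IP replicate 3, which is 3.63% beside 5.15% of all genes in that fit, and 1 higher without IP replicate 1. At the highest genes the interval of the difference was wide: for R107.5 it ran from 0.03 to 0.79 around 0.41, for set-16 from -0.01 to 0.59 around 0.29, and for K08E3.5 from -0.28 to 0.27 around -0.0043.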

How the data were processed

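For each mark the authors deposited 1 region list with 1 estimated count (expected count) per gene and library, not normalized. Per the submitters' processing notes, bcl2fastq 2.17, Trimmomatic 0.33, Bowtie 1.1.2 and MACS2 2.1.0 were used, with the builds WBcel235 and hg38 named; the counting tool, and whether regions were called on pooled samples, are not given in the sources used here. Shearing was to 0.2 to 1 kb, per the labels' protocols. Lists are ordered by IP over input (Spearman of list position with fold -1.00 for both marks on chromosome III), and 22.4% of H4K5ac and 23.2% of H4K8ac region numbers on chromosome III are not analysed here. A gene that is not listed is thus not shown to lack a mark.

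Estimated counts were rounded to whole numbers and tested with edgeR 4.0.16 (R 4.3.3): TMM scaling, quasi-likelihood test, IP against input over all genes of a mark's table (6 libraries), and the difference of folds in a 12-library fit of 3750 shared genes, with Benjamini-Hochberg adjustment over all genes tested. The filter on low counts removed 0 genes. DESeq2 1.42.0 was an alternative. Levels are scaled CPM. A start window reaches 2 kb to either side. Regions were placed by midpoint. Tests on simulated data with 200 changed genes recovered 52.8% of log2 changes of 0.3 and 94.6% of 0.5 for H4K5ac. Recovery was 86.5% and 100% for H4K8ac, and 33.7% and 90.6% for the difference, with 11, 6 and 3 false calls. Genes were simulated independently, unlike the real libraries, so these shares need not hold for them. In the real data Y111B2A.12 (0.58), rsp-3 (0.56) and rpt-6 (0.52) were not called for the difference (edgeR adjusted p from 0.202 to 0.256). Without H4K5ac IP replicate 3 each was called, at 0.73, 0.69 and 0.66 (edgeR adjusted p = 0.0174, 0.0128 and 0.0336).

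Same-numbered H4K5ac IP and input libraries deviated together (r = 0.278, 0.11 and 0.226 across genes), although replicates 2 and 3 also did so across numbers (0.145 and 0.152), so the replicate number was also used as a block. Replicate pairs within groups differed beyond counting noise (chi-square per degree of freedom 1.28 to 22.9), and none was treated as a duplicate. Named genes are the 10 highest and 10 lowest of those called per mark, those nearest the chromosome ends, list members with a count and, for the difference, those called by DESeq2. The broadest regions, the longest gaps and bath-42 were singled out after their values were seen. The members and lists were chosen with earlier results of these data known. No genome sequence was used here.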

Additional observations from a re-analysis of the deposited data

How the results depend on the processing

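For H4K5ac, total-count scaling gave 374 genes lower in place of 209 (38.4%, beside 46.6% of all listed genes). Leaving out 1 library gave 322 to 387 higher (33.1 to 39.7%, beside 27.9 to 32.9% of all listed genes). It gave 113 to 237 lower (11.6 to 24.3%, beside 19.2 to 31.0%). The lower count was 137 without IP replicate 2, 115 without input replicate 2 and 113 without input replicate 3. For H4K8ac, leaving out 1 library gave 331 to 437 higher (34.99 to 46.19%, beside 26.98 to 36.7% of all listed genes). It gave 151 to 290 lower (15.96 to 30.7%, beside 22.9 to 37.2%). The fewest lower genes, on chromosome III and over all listed genes, came without IP replicate 3. The 12-library fit of shared genes, with fewer genes tested, gave 247 higher for H4K8ac (35.8%, beside 30.7% of all genes in that fit). It gave 130 lower (18.9%, beside 24.0%). The medians in that fit lay above the other chromosomes by 0.0669 for H4K5ac and 0.0568 for H4K8ac. The difference between marks had 0 genes in edgeR, 5 higher and 1 lower in DESeq2, and 0 to 21 higher and 0 to 4 lower without 1 library. The H4K5ac centre share ranged from -0.308 to 1.03 percentage points without 1 library, and was reversed without IP replicate 2 (-0.150), IP replicate 3 (-0.308) or input replicate 1 (-0.185). An overlap of 50% of the length in place of 1 bp gave 89.1% and 85.6%. The cause of these changes was not tested. Densities of centre over arms stayed below 1 under every setting tried. Of single genes' results by setting, 2333 kept their side of the threshold, 70 gained a call, 0 turned and the rest lost one.

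With the replicate block, 386 genes were higher (39.6%, beside 33.5% of all genes) and 242 lower (24.8%, beside 32.8%) for H4K5ac, 373 (39.4%, beside 30.3%) and 243 (25.7%, beside 32.6%) for H4K8ac and 0 for the difference. Same-numbered H4K8ac libraries did not deviate together (r = -0.239, -0.1 and 0.0674), which cannot show whether they came from the same chromatin. In the exact sign-flip test within numbers, 3 pairs cannot go below p = 0.25.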
